A study of Mus musculus with 9 samples.

Results

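Complement is a cascade of blood and tissue-fluid proteins that marks surfaces for uptake and can open pores in membranes. C3 stands at its centre: the classical and lectin routes reach it through C4 and C2, the alternative route through factor B and properdin, and host cells hold it back with soluble and membrane-bound inhibitors. The liver makes most circulating complement, and macrophages are a known local source in tissues. The 9 genes described here are C3 itself, 3 genes that act on the steps around it (C4b, Cfb and Cfp), the fluid-phase inhibitors Serping1 and Clu, the membrane inhibitors Cd55 and Cd59a, and the receptor C3ar1, which binds the C3a fragment. They were taken by name from the 27998 genes of the matrix, and all 9 were found in it.

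The cells were taken from ascites, fluid of the peritoneal cavity, in B6_WT mice bearing ID8-Def29/Vegf, a mouse ovarian cancer line named for the defensin and the growth factor it was made to produce. They were measured in 1 10x Genomics library, whose labels name no treatment, age, sex or number of mice, so that every value describes 1 library and no test between conditions was possible. Cultures of the same line, 4 under deferiprone (an iron chelator, 12 h) and 4 under vehicle, were measured in bulk. None of the 8 columns of that table bears a name found in the labels, so the response of the 9 genes to deferiprone was not analysed here.

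Cells were assigned to classes by the summed molecule counts (unique molecular identifiers, UMIs) of a few genes other than the 9. Macrophages (1076 cells) had at least 3 UMIs of C1qa, C1qb and C1qc and at most 1 of the keratin set. The stromal gate (725 cells) asked for at least 4 UMIs of Col1a1, Col1a2, Col3a1, Mgp and Dcn, and the tumour-like gate (3660 cells) for at least 3 of the keratin set, Krt8, Krt18, Krt19, Wt1 and Upk3b, both with at most 1 C1q UMI. The 6442 barcodes that passed the cell filter held 24818206 UMIs, with a median of 3300 UMIs per barcode and a range of 500 to 19947. The median was 1640 UMIs in macrophages, 6966 in stromal-gate cells and 5007 in tumour-like cells, so shares of cells with a UMI are also given after each cell was thinned to 1000 UMIs. Levels are CPM, a gene's UMIs scaled to a common total per class, with exact Poisson 95% intervals, and ratios have exact conditional 95% intervals. All intervals cover counting error only.

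Markers outside the gates bore out the macrophage name and limited the others. Macrophages had a summed 21628 CPM of 8 macrophage markers, all of them detected, against 93.8 CPM in tumour-like cells. Red cell genes summed to 11641 CPM in macrophages and 1667 CPM in tumour-like cells, and their part in the levels was not tested. Tumour-like cells had Upk1b at 41.1 CPM, Krt7 at 24.0 CPM and Epcam at 1.20 CPM, and the epithelial genes Cdh1 and Pax8 had no UMI, so the name here means cells with keratin-set UMIs and no more. The stromal name went against the data: 704 of the 725 cells also passed the tumour-like gate, and 85.8% of the gate's UMIs were of Dcn alone. Fibroblast markers outside the gate summed to 1409 CPM in these cells and 1170 CPM in tumour-like cells, of which Sparc made up 1352 and 1125 CPM. Col6a1 had 51.1 CPM in stromal-gate cells, Pdgfra 5.19 CPM, Thy1 5 UMIs, Pdgfrb 1 UMI and Lum none. These cells are therefore called by their gate.

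Promoters are shown for the gene at the centre of the cascade for Cfp and C3ar1, the members with the highest macrophage to tumour-like ratios, and for Cd59a, an inhibitor on the same side as C3. RefSeq sequence (GRCm38.p6) was found for 5 of the 9 genes. Each stretch is the 250 bases before the annotated start, read 5′ to 3′ on the gene's strand: chr17:57228137-57228386 (minus strand) for C3, chrX:20931556-20931805 (minus) for Cfp, chr6:122856158-122856407 (minus) for C3ar1 and chr2:104095551-104095800 (plus) for Cd59a. Capitals mark matches, on either strand, to TTGCNNAA, a core of C/EBP sites, or GAGGAA, a core of PU.1 sites.
C3: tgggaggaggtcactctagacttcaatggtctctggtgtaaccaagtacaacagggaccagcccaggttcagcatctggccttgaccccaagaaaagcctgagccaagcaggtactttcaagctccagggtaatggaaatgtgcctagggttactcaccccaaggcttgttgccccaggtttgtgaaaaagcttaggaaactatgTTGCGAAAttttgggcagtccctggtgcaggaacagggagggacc
Cfp: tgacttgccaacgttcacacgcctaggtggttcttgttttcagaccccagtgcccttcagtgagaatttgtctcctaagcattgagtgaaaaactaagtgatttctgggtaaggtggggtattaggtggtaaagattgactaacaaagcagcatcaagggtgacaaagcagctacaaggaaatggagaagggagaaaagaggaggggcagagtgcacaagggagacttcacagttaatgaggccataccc
C3ar1: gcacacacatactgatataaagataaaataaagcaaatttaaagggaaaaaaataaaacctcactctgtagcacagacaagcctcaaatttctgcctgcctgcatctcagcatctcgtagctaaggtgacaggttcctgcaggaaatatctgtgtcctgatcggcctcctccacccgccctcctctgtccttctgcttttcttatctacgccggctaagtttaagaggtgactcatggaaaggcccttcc
Cd59a: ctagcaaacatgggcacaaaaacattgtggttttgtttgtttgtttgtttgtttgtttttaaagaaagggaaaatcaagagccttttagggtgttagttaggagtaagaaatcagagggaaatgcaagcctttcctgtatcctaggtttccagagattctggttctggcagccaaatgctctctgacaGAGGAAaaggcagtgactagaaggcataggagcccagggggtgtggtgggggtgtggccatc
The C/EBP core lay 45 to 38 bases before the start of C3, and the PU.1 core 62 to 57 bases before that of Cd59a. Of 32851 promoter windows of the same length, 9.56% held the first core and 23.3% the second, and no overlap between motifs was involved. The motifs were chosen after the sequences had been read. A match of letters is a description and not a site, and the absence of these letters from the Cfp and C3ar1 windows says nothing of any factor.

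All 9 genes lay at least 2-fold apart between macrophages and tumour-like cells, with intervals on the same side of 1: 4 were higher in macrophages and 5 lower. Over all 10385 genes with at least 50 UMIs in both classes together, 11.7% were higher in macrophages and 33.3% lower by the same rule, and the median log2 ratio of the genes detected in both classes was -0.52. The 9 were counted without that minimum, and Cfb, with 23 UMIs in both classes together, was under it. Properdin, C4, factor B and the C3a receptor were on the macrophage side, and C3 with the 4 inhibitors was on the tumour-like side.

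C3 (chr17:57203970-57228136, minus strand, GRCm38) encodes the protein that every route of the cascade cleaves. It had 29.9 CPM (22.7 to 38.8; 57 UMIs) in macrophages, 212 CPM (199.9 to 225; 1104 UMIs) in stromal-gate cells and 184 CPM (178 to 189.6; 3670 UMIs) in tumour-like cells. The ratio of macrophages to tumour-like cells was 0.163 (0.123 to 0.212). Tumour-like cells held 89.8% of the 4086 C3 UMIs of all kept barcodes, where they held 80.6% of the UMIs of all genes. A C3 UMI was found in 5.02% of macrophages and 48.3% of tumour-like cells, and in 3.16% and 16.3% of them at 1000 UMIs per cell.

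C4b (chr17:34728380-34743882, minus strand) encodes complement C4, whose cleavage starts the C3 convertase of the classical and lectin routes. Its order was the opposite of that of C3: 103 CPM (89.4 to 119; 197 UMIs) in macrophages, 11.9 CPM (9.14 to 15.3; 62 UMIs) in stromal-gate cells and 11.9 CPM (10.4 to 13.5; 237 UMIs) in tumour-like cells. The ratio of macrophages to tumour-like cells was 8.72 (7.18 to 10.6), and the values of the other two classes were within counting error of each other. C4b has a near-identical neighbour, C4a, which was not analysed here, so reads of both may stand under C4b.

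Cfb (chr17:34856374-34862518, minus strand) encodes factor B, the protease of the alternative C3 convertase. It was sparse, with 12 UMIs in macrophages (6.30 CPM, 3.25 to 11.0), 6 in stromal-gate cells and 11 in tumour-like cells (0.55 CPM, 0.275 to 0.984). The ratio of macrophages to tumour-like cells was 11.4 (4.62 to 28.6), on 23 UMIs in all.

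Cfp (chrX:20925454-20931555, minus strand) encodes properdin, the protein that stabilises the alternative convertase. It had 474 CPM (443 to 506; 903 UMIs) in macrophages, 1.54 CPM (8 UMIs) in stromal-gate cells and 2.80 CPM (2.12 to 3.64; 56 UMIs) in tumour-like cells, a ratio of 169 (129 to 226) between macrophages and tumour-like cells. A Cfp UMI was found in 49.0% of macrophages, which had a median of 1640 UMIs, and in 1.45% of tumour-like cells, which had a median of 5007. At 1000 UMIs per cell the shares were 34.6% and 0.305% in the same order.

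The fluid-phase inhibitors were lower in macrophages. Serping1 (chr2:84765387-84775444, minus strand) encodes the C1 inhibitor, which blocks the proteases C1r and C1s. It had 7.35 CPM (4.02 to 12.3; 14 UMIs) in macrophages, 129 CPM (119 to 139; 671 UMIs) in stromal-gate cells and 113 CPM (108 to 118; 2259 UMIs) in tumour-like cells, a macrophage to tumour-like ratio of 0.0650 (0.0355 to 0.109). Clu (chr14:65968483-65981547, plus strand) encodes clusterin, an extracellular chaperone that also binds the terminal complex. It had 126 CPM (111 to 143; 240 UMIs) in macrophages, 1707 CPM (1672 to 1743; 8881 UMIs) in stromal-gate cells and 1468 CPM (1451 to 1484; 29343 UMIs) in tumour-like cells, a macrophage to tumour-like ratio of 0.0858 (0.0753 to 0.0974). Clu was found in 95% of tumour-like cells, and in 67.1% of them at 1000 UMIs per cell.

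The membrane inhibitors had the same order of macrophages and tumour-like cells. Cd59a (chr2:104095801-104115354, plus strand) encodes the surface protein that blocks the last step of pore assembly. It had 7.35 CPM (4.02 to 12.3; 14 UMIs) in macrophages, 51.3 CPM (45.4 to 57.9; 267 UMIs) in stromal-gate cells and 71.2 CPM (67.6 to 75.0; 1424 UMIs) in tumour-like cells, a macrophage to tumour-like ratio of 0.103 (0.0562 to 0.174). It has a close paralog, Cd59b, and the counting of shared reads is not given in the sources used here. Cd55 (chr1:130439027-130462744, minus strand) encodes decay-accelerating factor, which takes C3 convertases apart. It was sparse, with 1 UMI in macrophages, 33 in stromal-gate cells (6.35 CPM, 4.37 to 8.91) and 86 in tumour-like cells (4.30 CPM, 3.44 to 5.31). The macrophage to tumour-like ratio was 0.122 (0.00305 to 0.698), an interval that rests on the 1 UMI.

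C3ar1 (chr6:122847138-122856161, minus strand) encodes the receptor of the C3a fragment and lay with the macrophages. It had 138 CPM (122 to 156; 263 UMIs) in macrophages, 0.385 CPM (2 UMIs) in stromal-gate cells and 0.75 CPM (0.420 to 1.24; 15 UMIs) in tumour-like cells, a macrophage to tumour-like ratio of 184 (109.5 to 333). It was found in 20.4% of macrophages and in 11.5% of them at 1000 UMIs per cell. The ligand's gene and the receptor's gene were thus highest in different classes.

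**Figure D1:**
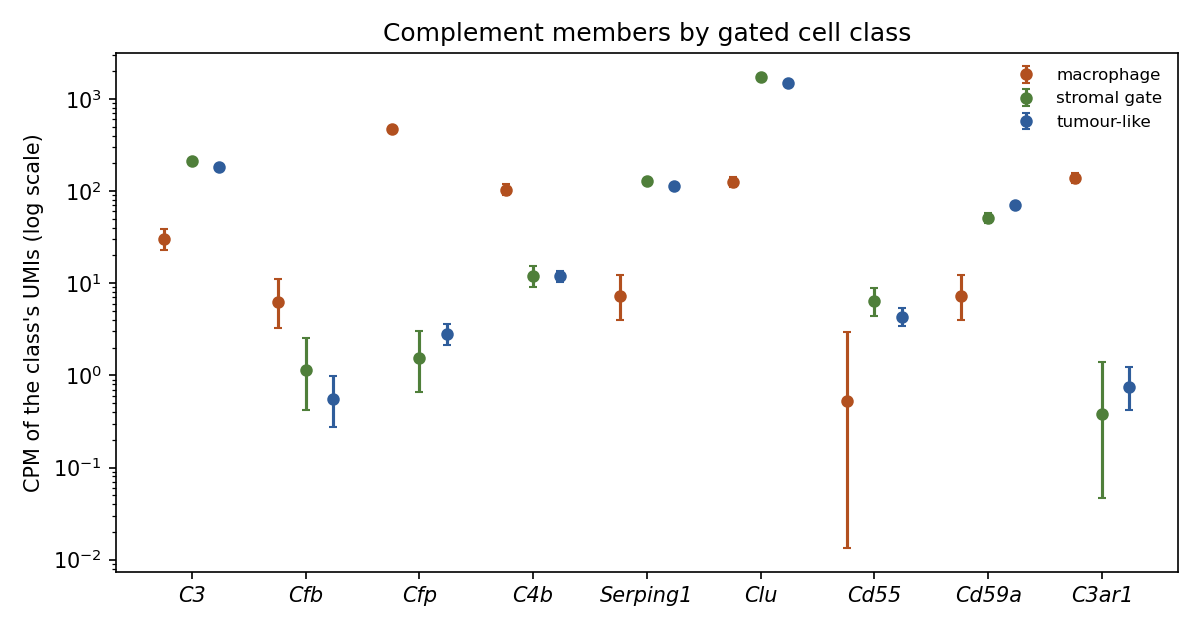
Level of each of the 9 genes in macrophages, stromal-gate cells and tumour-like cells, as CPM of all UMIs of the class on a log axis; points are the 1 library's values and bars exact Poisson 95% intervals. Cfb, Cfp, C4b and C3ar1 are highest in macrophages, and C3, Serping1, Clu, Cd55 and Cd59a are lowest there.

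Droplets also take up RNA that floats free, and this bears on the low levels. Its share was taken from markers foreign to a class, relative to their level in near-empty barcodes of 1 to 50 UMIs, and came to 12.4% (10.6 to 14.6%) in macrophages and 4.97% (4.58 to 5.40%) in tumour-like cells. In macrophages Clu stood at 13.0% (10.9 to 15.4%) of its level in that profile, Serping1 at 11.8% (5.49 to 24.9%) and Cd59a at 12.5% (5.75 to 26.6%), all with intervals that overlap that of the foreign markers. C3 in macrophages was at 16.1% (10.9 to 23.6%), an interval that overlaps it too. Against barcodes of 100 to 200 UMIs, where the foreign markers came to 9.32% (8.25 to 10.5%), C3 was at 24.2% (18.2 to 31.6%) and Clu at 14.9% (13.1 to 17%), both above the foreign markers, so whether macrophages held C3 and Clu above background depended on the profile. Serping1 (11.7%, 6.37 to 19.9%) and Cd59a (14.7%, 7.97 to 25%) overlapped the foreign markers against this profile as well. Each had 14 UMIs in macrophages, and these intervals cannot tell background from a low level of their own. With the free RNA of the 1 to 50 UMI profile subtracted from both classes, the macrophage to tumour-like ratio was 519 for C3ar1 and 283 for Cfp. It was 0.0390 for C3, 0.00387 for Clu, 0.000681 for Cd59a and 0 for Serping1, so the sizes of these ratios depended on the background. The part subtracted was larger in macrophages (12.4% against 4.97% of the profile), so a gene lower there could only become lower. For C3, Clu, Cd59a and Serping1 the unchanged direction was thus set in advance.

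The macrophage genes stood far from that background. In macrophages Cfp was at 2073% (1002 to 5170%) of the profile of 1 to 50 UMIs, C3ar1 at 1409% (477 to 6874%) and C4b at 791% (304 to 2933%). Cfb was at 193% (28.5 to 8242%) on 1 UMI in the profile, and Cd55 had no UMI in the profile. Seen from the other side, Cfp in tumour-like cells was at 12.2% (5.57 to 31.9%) and C3ar1 at 7.66% (2.17 to 41.3%). The foreign markers gave 4.97% (4.58 to 5.40%), so the Cfp interval lay just above them and that of C3ar1 overlapped them. Against barcodes of 100 to 200 UMIs, both lay above the foreign markers' 7.14% (6.84 to 7.46%). There Cfp was at 15.55% (11.2 to 21.3%) and C3ar1 at 18.95% (9.51 to 36.2%). C4b stood higher: in tumour-like cells it was at 90.8% (35.0 to 336%) of the 1 to 50 UMI profile, with an interval that did not reach the foreign markers' range. C3 was at 98.6% there, Serping1 at 182%, Clu at 151% and Cd59a at 121%, so these genes were all as high in tumour-like cells as in free RNA or higher, within error. Tumour-like cells held C4b above the part expected from free RNA (11.85 against 0.649 CPM), at a lower level than macrophages.

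**Figure D2:**
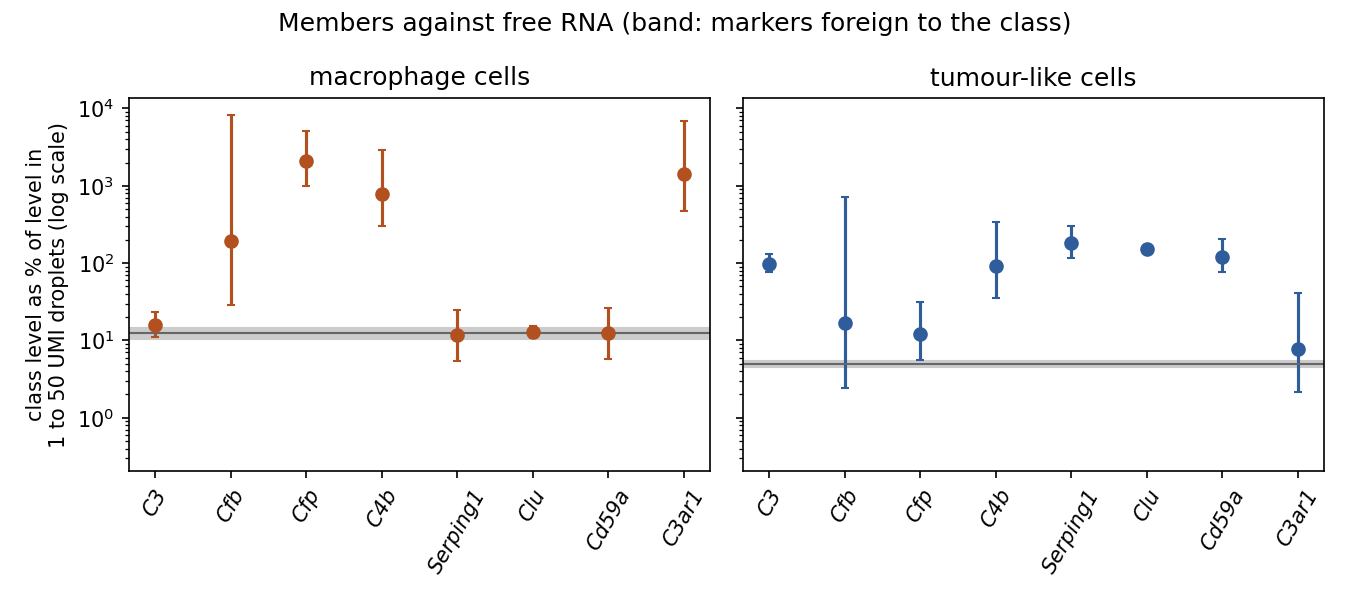
Level of each gene in macrophages (left) and tumour-like cells (right) as a percent of its level in barcodes of 1 to 50 UMIs, on a log axis with 95% intervals; the grey band is the same percent for markers foreign to the class. In macrophages C3, Serping1, Clu and Cd59a lie on or next to the band at 12.4%, and in tumour-like cells C3, C4b, Serping1, Clu and Cd59a lie far above the band at 4.97%. Cd55 had no UMI in those barcodes and is not drawn.

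A list of 42 other complement genes was read in the same way. C4a was not found in the matrix under that symbol, and Itgam, which stands under more than 1 gene ID, was not counted. Of the others, 12 had at least 50 UMIs over the 3 classes. Of these 12, 6 were at least 2-fold higher in macrophages than in tumour-like cells, 5 were lower and Cd59b was neither, where 11.7% of all genes were higher and 33.3% lower, so the share of lower ones lay near that of all genes. Cd93, Itgb2, C5ar1 and Vsig4 passed the minimum only through their macrophage UMIs, and C1ra, C1s1, C2, Cd59b and Cpn1 only through the other classes. The counts of higher and lower genes are thus partly set by that minimum. Receptors made up most of the higher ones. C5ar1, the receptor of C5a, had 165.8 CPM in macrophages and 0.25 CPM in tumour-like cells. Itgb2, the shared chain of complement receptors 3 and 4, had 100.2 CPM in macrophages and 0.75 CPM in tumour-like cells. Vsig4, a receptor for C3 fragments on resident macrophages, had 42.5 CPM in macrophages and 0.25 CPM in tumour-like cells, and its 81 macrophage UMIs lay in 26 cells. Cd93, first described as a C1q receptor, had 94.5 CPM in macrophages and 2 UMIs in tumour-like cells.

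The fluid-phase genes of the list fell on both sides. Fcna, the recognition protein ficolin A of the lectin route, had 811 CPM in macrophages and 2.70 CPM in tumour-like cells, and was found in 36.3% of macrophages, or 30.6% at 1000 UMIs per cell. The membrane inhibitor gene Cr1l was 2.08 times (1.58 to 2.68) as high in macrophages. The classical-route proteases were lower in macrophages: C1s1 had 1.05 CPM there (2 UMIs) against 28.4 CPM in tumour-like cells, C1ra 5.77 against 11.7 CPM and C2 1.05 (2 UMIs) against 13.4 CPM. C1r and C1s have close paralogs in the mouse, so both values are uncertain. C1qbp, a mitochondrial protein that can bind C1q, and Cpn1, the carboxypeptidase that inactivates C3a and C5a, were also lower in macrophages, at 56.7 against 128 CPM and 2.10 against 15.6 CPM.

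The genes of the terminal pore had few UMIs or none. C8g, a chain of C8, had 31 UMIs in the 3 classes together. Hc, which encodes C5, and C6, C7, C8a and C8b had no UMI in any of the 3 classes, which allows up to 1.57 CPM in macrophages and 0.150 CPM in tumour-like cells, and C9 had 1 UMI. Factor D (Cfd), needed to activate factor B, also had none.

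Cells of the stromal gate were close to tumour-like cells, with which most of them overlap. None of the 9 genes was at least 2-fold apart with an interval off 1, against 0.366% of 10391 genes higher in the stromal gate and 0.308% lower. The overlap was removed in a comparison added after the data had been seen, of the 725 stromal-gate cells with the 2956 tumour-like cells outside the gate, in which again none of the 9 was called, against 1.05% of genes higher and 0.683% lower. C3 had 212 CPM in stromal-gate cells and 175 CPM in the others, a ratio of 1.21 (1.13 to 1.30). Clu had a ratio of 1.23 (1.20 to 1.26), Serping1 1.19 (1.09 to 1.31), Cd55 1.78 (1.11 to 2.80) and Cd59a 0.657 (0.573 to 0.751). These departures from 1 exceed counting error and are under 2-fold, and with 1 library their spread over mice is unknown.

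When Dcn was left out of the gate, also after the data had been seen, 44 cells remained, of which 40 passed the tumour-like gate too. Here 3 of the 9 genes were higher than in the 3620 other tumour-like cells and 1 was lower. Of all genes with at least 50 UMIs in both groups together, 3.23% were higher and 2.16% lower. C3 had 556 CPM (464 to 661; 128 UMIs) in the 44 cells and 179.7 CPM in the others, a ratio of 3.09 (2.57 to 3.69). C4b had 34.7 CPM (8 UMIs) against 11.6 CPM, and Cfb 13.0 CPM (3 UMIs) against 0.405 CPM (8 UMIs). Cfb was thus counted among the 9 though under the minimum asked of all genes. Cd59a went the other way, with 8.69 CPM (2 UMIs) against 71.9 CPM. Clu was close in both, at 1668 and 1466 CPM. From the wider list C1ra, C1s1 and Cpn1 were higher in the 44 cells, C1s1 at 82.5 CPM (19 UMIs) against 27.8 CPM. The 44 cells had Msln at 104 CPM, Krt7 at 191 CPM and Pdgfra at 52.1 CPM, and no UMI of Lum or Pdgfrb, so markers of mesothelium and of fibroblasts were both present and no cell type is named.

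Within the tumour-like class, cells were split by sets of genes that led earlier clusters of these same cells. C3 had led a cluster together with Lgals2, apart from that of Gstm1 and Gstm2. Its values in these splits therefore describe known patterns and are no support for them. All 3403 cells with at least 2000 UMIs were thinned to that depth. The 862 cells with at least 21 UMIs of the glutathione transferase genes Gstm1 and Gstm2 are called Gstm-high, 140 cells lay at that limit or 1 UMI below it, and the other 2541 cells were set against them.

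Of the 9 genes, 1 was higher and 3 were lower in Gstm-high cells, against 2.18% and 2.54% of all genes. C3 had 89.3 CPM in Gstm-high cells and 219 CPM in the others, a ratio of 0.408 (0.343 to 0.484). Serping1 had 63.2 and 135 CPM in the same order, a ratio of 0.467 (0.378 to 0.572), and C4b 4.06 CPM (7 UMIs) and 15.6 CPM (79 UMIs). Cd59a was higher, with 112 CPM in Gstm-high cells and 55.1 CPM in the others, a ratio of 2.03 (1.68 to 2.45). Clu, the most counted of the 9, had 1572 and 1504 CPM, a ratio of 1.04 (1.0 to 1.09), so the inhibitors did not move as a group. The median mitochondrial share was 3.88% in Gstm-high cells and 3.14% in the others, the median depth before thinning 5136 and 5294 UMIs, and foreign macrophage markers came to 111 and 134 CPM. With a split at the median instead, which put the 1764 cells with at least 11 UMIs in the high group, C3 had a ratio of 0.545 (0.485 to 0.612), Cd59a was the 1 gene still called and none was called lower. Without the stromal-gate cells, Cd59a had a ratio of 1.99 (1.62 to 2.43), just under the 2-fold limit, and 3 of the 9 genes were called lower.

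Cells with a UMI of the mitosis genes Top2a, Birc5 or Mki67 or of Lockd numbered 512, and 1 of the 9 genes was lower in them than in the other 2891 cells, against 1.20% of genes lower and 2.11% higher. That gene was C4b, at 4.88 CPM (5 UMIs) against 14.0 CPM (81 UMIs). C3 had 130 CPM in these cells and 196 CPM in the others, a ratio of 0.663 (0.55 to 0.794). For the other 4 sets the ratio of C3 lay between 0.587 (0.501 to 0.684), in cells with Wfdc18, Gng13 or Sncg UMIs, and 1.27 (1.14 to 1.42), in cells with an Lgals2 UMI. C3 and Lgals2 had led the same earlier cluster, so the value for Lgals2 is no independent result. These 5 sets were split at 1 UMI, so most cells lie at the limit and the groups mix.

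Macrophages were split at 6 UMIs of Pf4, Arg1 and Saa3 after thinning to 1000 UMIs, which gave 508 high cells and 442 others. C4b was the 1 gene of the 9 called, on the higher side, against 2.8% of genes higher and 1.37% lower. It had 152 CPM (77 UMIs) in the high cells and 38.5 CPM (17 UMIs) in the others, a ratio of 3.94 (2.31 to 7.11). Cfp had 587 CPM in the high cells and 337 CPM in the others, a ratio of 1.74 (1.43 to 2.13), and C3ar1 136 and 104 CPM, a ratio of 1.30 (0.886 to 1.94). With the 238 macrophages of at least 14 UMIs as the high cells instead, the ratio of C4b was 2.42 (1.57 to 3.70) and that of Cfp 1.25 (1.01 to 1.54). C3 had a ratio of 1.21 (0.558 to 2.67) in the first split and 0.718 (0.241 to 1.79) in the second, both with intervals that include 1. The high cells were deeper before thinning in the first split, with a median of 1964 UMIs against 1526.

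**Figure D3:**
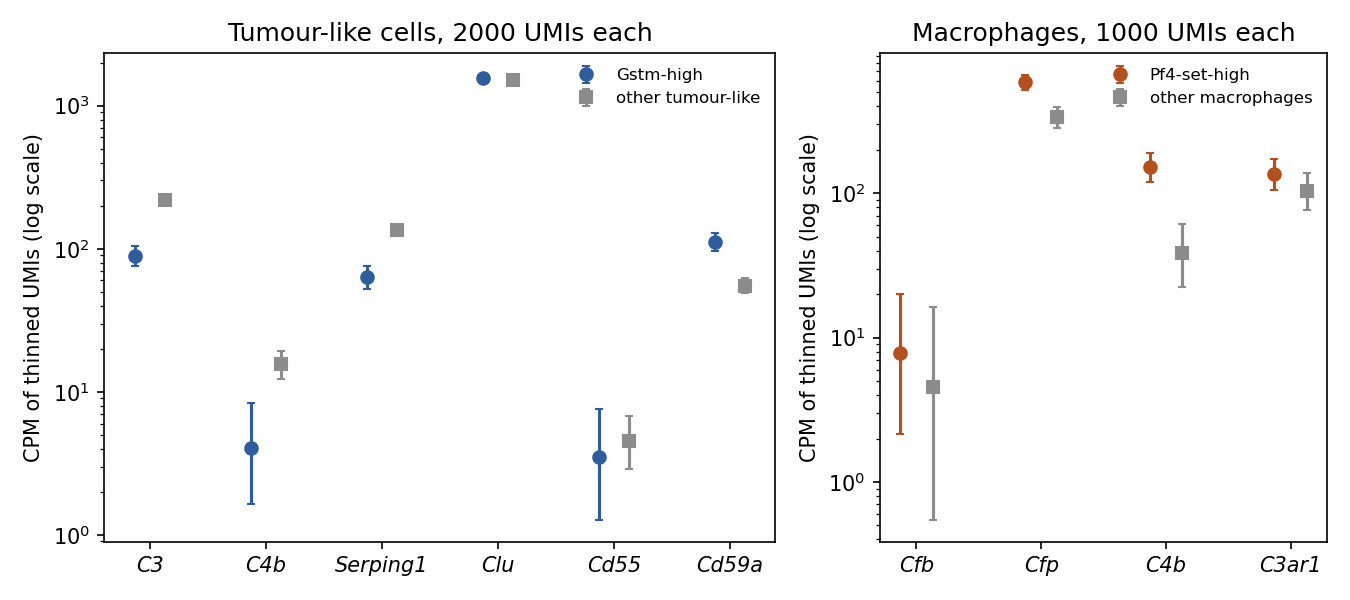
CPM of the 9 genes' thinned UMIs on a log axis, with exact Poisson 95% intervals, for 6 genes in Gstm-high and other tumour-like cells (left) and 4 genes in Pf4-set-high and other macrophages (right). C3, C4b and Serping1 are lower and Cd59a higher in Gstm-high cells while Clu is level, and C4b is higher in Pf4-set-high macrophages.

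From cell to cell, C3 was uneven within the tumour-like class. Its count was 0 in 1893 of 3660 cells, with a median of 0 and a highest value of 19. At 2000 UMIs per cell, 73.3% of cells had none, where a Poisson count of the same mean gives 68.9%, and the variance was 1.60 times the mean. Clu had a variance of 3.49 times its mean and was at 0 in 15.4% of cells against a Poisson 4.78%. Serping1 (1.18 times) and Cd59a (1.08 times) lay close to counting noise. Their means were 0.234 and 0.139 UMIs per cell, against 3.04 for Clu, and at low means this measure lies near 1 and shows little. Between Gstm-high and other cells both genes did differ, with ratios of 0.467 and 2.03. In macrophages at 1000 UMIs per cell, Cfp had a variance of 1.20 times its mean, C4b 1.33 times and C3ar1 0.984 times. The C3ar1 counts thus showed no spread beyond counting, at a mean of 0.121 UMIs per cell.

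C3 and Clu were also higher in cells rich in mitochondrial RNA, which can mark damaged cells; an earlier cluster of these cells was led by mitochondrial genes and C3, so this too describes a known pattern. In tumour-like cells with 0 to 5%, 5 to 10% and 10 to 15% mitochondrial UMIs, C3 had 176 CPM (3023 cells), 199 CPM (454 cells) and 391 CPM (183 cells), and Clu had 1407, 1622 and 3078 CPM. C4b rose in the same order, with 11.5, 12.85 and 20.9 CPM, the last on 9 UMIs (9.58 to 39.75 CPM). Cd55 did too, with 4.005, 5.996 and 6.98 CPM, the last on 3 UMIs. Serping1 had no such order, with 115, 88.7 and 181.5 CPM, though it too was highest at 10 to 15%. Cd59a had 66.7, 104.5 and 69.8 CPM. In 4 groups of nearly equal size by depth, from shallow to deep, C3 had 263.5, 195, 165 and 167.5 CPM and Clu 1944, 1655, 1502 and 1221 CPM. The part of cell damage in these levels was not tested.

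**Figure D4:**
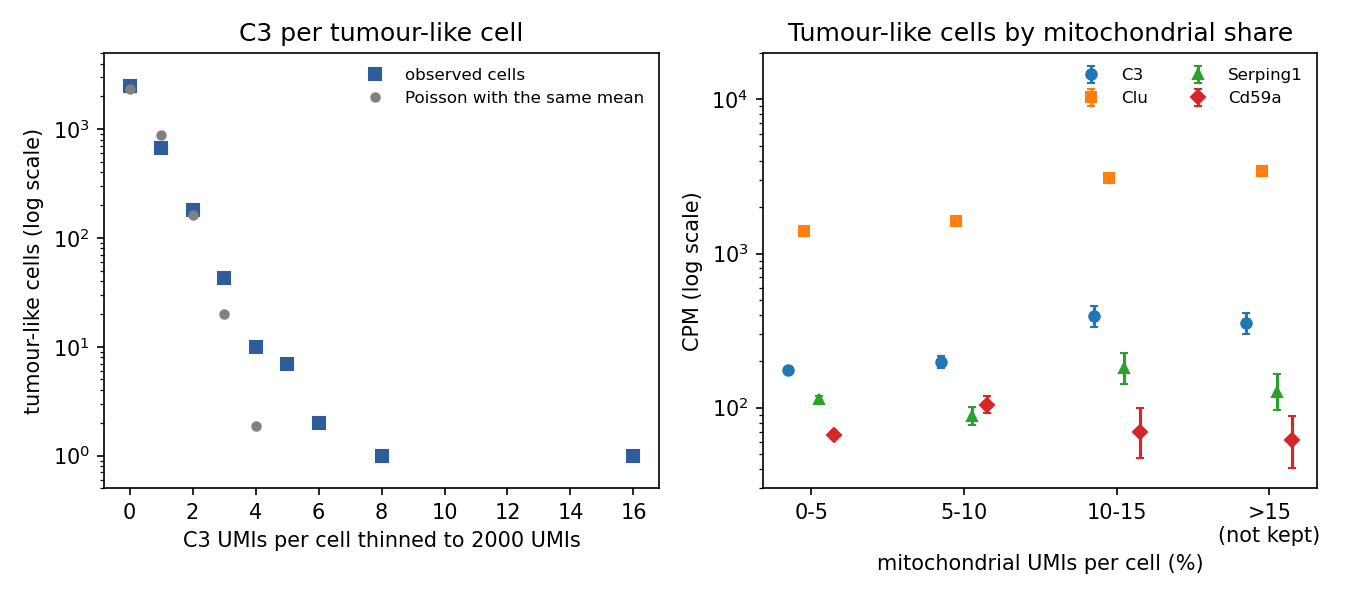
Left, number of tumour-like cells (log axis) by C3 UMIs per cell at 2000 UMIs, as squares, with the Poisson counts of the same mean as dots; right, CPM of 4 genes (log axis, exact Poisson 95% intervals) in tumour-like cells by mitochondrial share, with barcodes over 15% that were not kept. The squares reach 16 UMIs while the Poisson dots end at 4, and C3 and Clu are higher in cells with over 10% than in those with less.

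The genes whose counts went most with those of each member were named by Pearson r over cells of its highest class at 2000 UMIs, among genes found in at least 10% of the cells, and for C3 over tumour-like cells too. The highest of these values is 0.33, the cells share 1 library, and they are given as description. For C3 over 3403 tumour-like cells, the 5 highest of 1872 genes were Hes1 (r = 0.19), Fth1 (0.16), Malat1 (0.15), Crip1 (0.15) and Creg1 (0.13), and the lowest was Gstm1 (-0.16). Over the 698 stromal-gate cells, where C3 had its highest level, they were Slpi (0.33), Hes1 (0.29), Col4a1 (0.25), Mt2 (0.23) and Igfbp7 (0.23), so that Hes1 was the 1 gene listed in both. For C4b over 317 macrophages the highest were Fcna (0.24), Fn1 (0.24), Slc16a3 (0.23), Saa3 (0.22) and Wfdc17 (0.19). For Cfp they were Actb (0.20), Shfm1 (0.18), Itgam (0.18, for 1 of the 2 entries of that symbol), Ms4a6c (0.18) and Fn1 (0.17), and for C3ar1 Fcer1g (0.18), Mkrn1 (0.17), Ssna1 (0.15), Rab2a (0.15) and Ssbp4 (0.15). Over the same 698 stromal-gate cells, the highest for Clu were Tm4sf1 (0.23), Ctsl (0.17), Malat1 (0.17), Fxyd3 (0.17) and Ldhb (0.16), and for Serping1 Creg1 (0.15), Fxyd3 (0.14), Cd74 (0.12), Hmcn1 (0.12) and Nt5c3 (0.12). Creg1 was thus listed for both C3 (over tumour-like cells) and Serping1, and Fn1 for both C4b and Cfp.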

How the data were processed

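Single-cell RNA was measured in 1 ascites library. The authors deposited UMI counts per gene and barcode, unfiltered (27998 genes, 737280 barcodes, 35733776 UMIs); no aligner or build is stated in the labels, which also give no extraction protocol. The deposited file names each gene by symbol and Ensembl ID.

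Barcodes were kept from 500 UMIs and 200 genes up, with a mitochondrial share of no more than 15%, and gated as described, and UMIs were summed per class. The gates set a limit on mixed droplets and no doublet caller was run. A gene counted as 2-fold apart at a ratio of at least 2 or at most 0.5 with its 95% interval on the same side of 1. Over all genes, 50 UMIs in both classes together were required. The limit that a count of 0 allows is 3 counts. PCR and free RNA are not covered by the intervals. With 1 library no test between groups was made and no p-value is given. The counting and calling steps were tested on simulated data. The named genes were the 9, the members of a complement list with at least 50 UMIs over the 3 classes (apart from 1 gene that is left out here), and the 5 genes with the highest r for each member found in at least 20% of its class at 2000 UMIs. The members, lists and state sets were chosen with earlier results of these data known.

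The 8 columns of the bulk table match no sample label, so the edgeR test of deferiprone over vehicle was left out. Gene positions are from GENCODE M21 (GRCm38) and promoters from RefSeq (GRCm38.p6). Tools were Python 3.11.15, numpy 2.4.6, scipy 1.17.1, pandas 2.3.3 and matplotlib 3.10.9, with seed 1 for thinning. Alternatives changed the filter, the gates, free RNA and the state limits.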

Additional observations from a re-analysis of the deposited data

Results flagged for a closer look

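Barcodes outside the comparisons held members of the group above the limit that a count of 0 allows. Cfp had 220.4 CPM (192 to 252; 215 UMIs) in the 863 kept cells outside the 3 gates that had no keratin-set UMI, where 3 counts would be 3.08 CPM. Their median depth was 996 UMIs. Of the ungated cells, the 46 with at least 2 UMIs of dendritic cell markers had Cfp at 261 CPM (152 to 418; 17 UMIs) and the 138 with B cell markers at 108 CPM (57.7 to 185; 13 UMIs), both below the 474 CPM of macrophages.

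C3 had 355 CPM (303 to 414; 162 UMIs) in the 264 barcodes that passed the tumour-like gate but had over 15% mitochondrial UMIs, and Clu had 3456 CPM there, against 184 and 1468 CPM in the tumour-like cells that were kept.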

How the results depend on the processing

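Of 189 ratios of single members under an alternative, 151 lay inside the interval of the main ratio and 38 outside it. None that was called turned round. This count leaves out the counting error of the alternative itself, so a ratio outside need not differ beyond counting error. With thinned gates, the stromal over tumour-like ratio of C3ar1 lay outside at 0, on 3 UMIs. Its own interval (0 to 107.4) included the main ratio, 0.5125. Of 27 shares of cells thinned to 1000 UMIs, 22 lay outside the interval of the unthinned share. Between macrophages and tumour-like cells, 8 or 9 members were called under every alternative, Cd55 being lost where barcodes with signs of a second cell were left out and Cfb not counted where 50 UMIs were asked for. The C3 ratio was 0.0390 once free RNA was subtracted, and the calls under that alternative used the intervals of the unsubtracted counts. Elsewhere the ratio of Cfp fell outside its main interval, at 113 (76.7 to 174) with thinned gates. That of Clu did so barely, at 0.0975 (0.0822 to 0.115) without barcodes with signs of a second cell. The intervals of both alternatives included the main ratios, 169 and 0.0858. Within their main intervals, Cfb stood at 7.34 and C3ar1 at 276 with thinned gates, and Cfb at 18.7 without barcodes in both gates. Serping1 at 0.105 and Cd59a at 0.0582, without barcodes with signs of a second cell, were also within theirs.

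Between the stromal gate and tumour-like cells, where 0 members and 70 genes were called, the choice of gate decided the count. With minimums raised by 2 UMIs the C3 ratio was 1.31, with 1 member and 164 genes called. That member was Cfb, on 17 UMIs, under the 50 UMIs asked of the genes. With gates set on barcodes thinned to 1000 UMIs it was 4.61, with 4 members and 404 genes on 41 stromal-gate cells. With barcodes in both gates left out it was 2.93, with 2 members and 247 genes on 21 cells. A minimum of 20 UMIs gave 113 genes. Against tumour-like cells outside the gate there were 172 genes, and with Dcn left out of the gate a C3 ratio of 3.09, 4 members and 536 genes; these last comparisons, and the limits and alternatives of the splits within classes, were set after the data had been seen. With a split at the median, Gstm-high cells gave a C3 ratio of 0.545 and 1 member called, against 4. The cause was not tested. The genes listed for C3 were the same 5 by Spearman's rho, and 4 of 5 at 3000 UMIs. Over stromal-gate cells, added after the data had been seen, 1 of the 5 was listed and the highest r was 0.33.

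No paired analysis was possible because the columns of the bulk table carry no sample names, so neither the replicate block, DESeq2 nor leaving out a library was run. Depth limits Cfb and Cd55 most, with 23 and 100 UMIs in all kept cells.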
